A study of Mus musculus with 9 samples.

Results

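The 32 genes described here encode glycolysis and the handling of lactate and pyruvate, and were chosen by name from general knowledge: a neuronal glucose transporter and the hexokinases, the enzymes of the preparatory and payoff steps, the kinases that make fructose 2,6-bisphosphate, the lactate dehydrogenases and lactate transporters, the genes of pyruvate entry, and the glycerol phosphate dehydrogenase Gpd1. The list was drawn up with earlier results of these data known, so its shares beside those of all genes are descriptive only. All 32 were found among the 40213 genes of the deposited files. All 32 also passed the filter on low counts, which left 16106 genes for testing. Glycolysis splits glucose to pyruvate, which brain cells either reduce to lactate and pass to neighbouring cells or carry into mitochondria for oxidation. Astrocytes are known for making and releasing lactate, and neurons, oligodendrocytes and endothelium for taking it up or handing it on through monocarboxylate transporters.

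The tissue was ventral hippocampus of 9 wild-type male C57BL/6J mice, which were 8 weeks old and naïve when first housed. SED mice (n = 3) were sedentary and untreated. SUS mice (n = 3) were labelled stress-susceptible after restraint in a tube for 2 hours a day on 14 days, and then stayed sedentary. SUS_LE mice (n = 3) had the same restraint, were also labelled susceptible, and then ran on a treadmill at low intensity for 2 weeks. The labels used here do not give the score behind "susceptible", nor the interval between the last session and tissue collection, and no group was exercised without restraint. Each mouse gave 1 total RNA library of 14172344 to 15582304 counts, all from batch 1 of the labels. Levels are given in CPM, counts per 1000000 counts of a library after scaling, and the 32 genes together took 0.753% to 0.861% of a library.

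Markers of neurons, astrocytes, oligodendrocytes and hippocampal neurons were detected in every library, none of them at 0. Libraries differed most in choroid plexus transcripts: the summed level of 14 marker genes ran from 60.3 to 6859.9 CPM. Ttr, the thyroid hormone carrier of that tissue, stood at 27.4 CPM in SUS 1, 83.2 in SUS_LE 1 and 59.6 in SUS_LE 3, against 1509 to 6085 CPM in the other 6 libraries. Those 3 libraries stand apart, so results below are also given without them. In whole tissue, fewer cells of a type and less RNA per cell cannot be told apart.

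Per kilobase of transcript, the mean level over the 9 libraries spanned more than 3 orders of magnitude among the 32 genes. Aldolase A (Aldoa, 861 CPM per kb) and the dehydrogenase Gapdh (694) were highest, followed by the pyruvate kinase Pkm (265) and the enolase Eno1 (253). The neuronal enolase Eno2 stood at 178 CPM per kb. Hexokinase 1 (Hk1), which commits glucose to the cell, stood at 83.9 CPM per kb, and hexokinase 2 (Hk2) at 0.976. Among the 3 phosphofructokinases, which catalyse the committed step, the muscle form Pfkm stood at 72.1 CPM per kb, the platelet form Pfkp at 58.9 and the liver form Pfkl at 35.4. Ldhb, the dehydrogenase subunit that favours lactate oxidation, stood at 151 CPM per kb, above Ldha (76.7), the subunit that favours lactate formation. The lactate transporters were among the least abundant genes of the route: Slc16a1 (MCT1) stood at 9.31 CPM per kb, Slc16a7 (MCT2) at 4.39 and Slc16a3 (MCT4) at 0.311. The order of these isozymes was the same in all 3 groups.

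**Figure D1:**
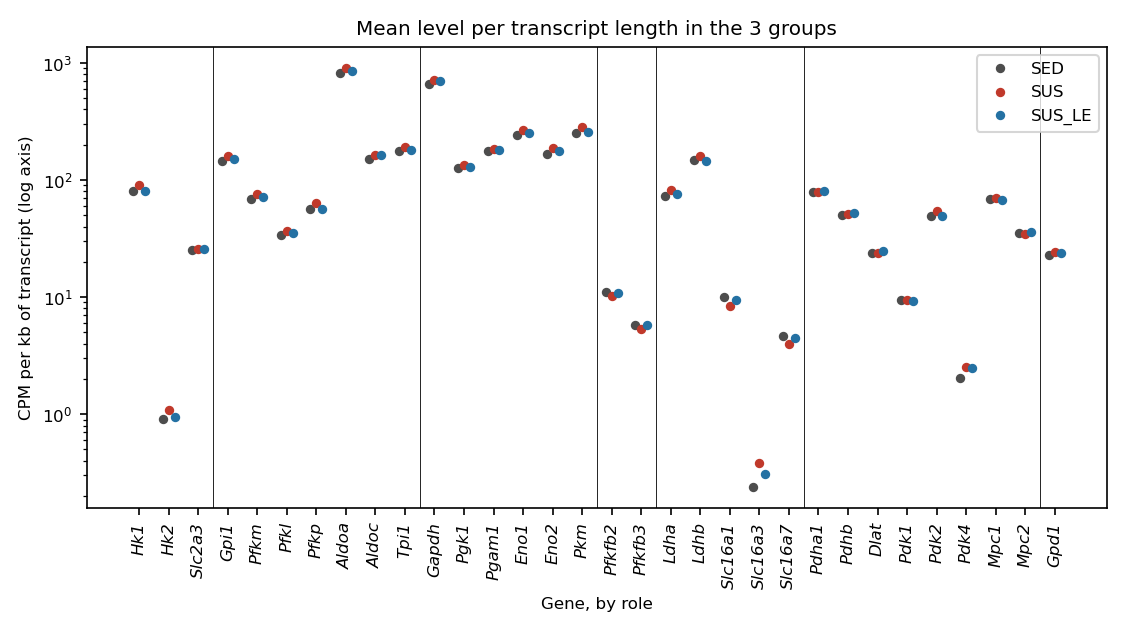
Mean CPM per kilobase of transcript on a log axis for each of the 32 genes, grouped by role, with 1 point for each group of 3 mice. Aldoa and Gapdh are highest and Slc16a3 is lowest in every group, and the distance between groups is small beside the distance between genes.

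Promoters were read for the core of the hypoxia response element, ACGTG or GCGTG, searched on both strands. The first form is also part of the E-box CACGTG. The 250 bases before each start listed by RefSeq (GRCm38.p6) were searched, and 29 of the 32 genes had an entry. A match was found in 35 of 46 promoters of these genes (76.1%) and in 12678 of 32841 promoters of all genes (38.6%). Member promoters had a median GC content of 61.6%, against 52.4% over all promoters. A match describes the letters only. The sequences below belong to 5 of the genes with the smallest p in the comparisons that follow, together with Ldha as the partner of Ldhb, each from 5′ to 3′ on the strand of the gene and with matches, read on either strand, in capitals. Both listed starts are shown for Hk1 and the first listed one for Pdk2 and Ldha, which have 2 each.
Hk1 (chr10:62379909-62380158, minus strand): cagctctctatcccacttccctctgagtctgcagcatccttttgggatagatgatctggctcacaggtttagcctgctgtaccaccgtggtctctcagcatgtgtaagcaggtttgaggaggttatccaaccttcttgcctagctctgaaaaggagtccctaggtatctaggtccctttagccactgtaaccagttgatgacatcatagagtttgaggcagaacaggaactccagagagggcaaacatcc
Hk1 (chr10:62340422-62340671, minus strand): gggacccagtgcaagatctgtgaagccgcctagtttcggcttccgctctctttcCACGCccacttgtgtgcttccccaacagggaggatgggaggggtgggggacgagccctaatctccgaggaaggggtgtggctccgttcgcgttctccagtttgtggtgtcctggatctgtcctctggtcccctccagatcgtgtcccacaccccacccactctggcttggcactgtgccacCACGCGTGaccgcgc
Pfkp (chr13:6648772-6649021, minus strand): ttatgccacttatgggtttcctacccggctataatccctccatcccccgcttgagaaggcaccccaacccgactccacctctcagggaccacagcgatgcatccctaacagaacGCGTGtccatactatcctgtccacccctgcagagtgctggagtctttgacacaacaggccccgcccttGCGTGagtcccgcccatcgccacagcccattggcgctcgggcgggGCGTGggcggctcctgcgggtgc
Eno2 (chr6:124769674-124769923, minus strand): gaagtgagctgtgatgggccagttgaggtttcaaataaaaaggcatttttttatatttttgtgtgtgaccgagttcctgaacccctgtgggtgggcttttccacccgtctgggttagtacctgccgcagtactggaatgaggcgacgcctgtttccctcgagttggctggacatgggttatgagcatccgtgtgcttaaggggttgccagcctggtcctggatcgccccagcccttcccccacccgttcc
Pdk2 (chr11:95041372-95041621, minus strand): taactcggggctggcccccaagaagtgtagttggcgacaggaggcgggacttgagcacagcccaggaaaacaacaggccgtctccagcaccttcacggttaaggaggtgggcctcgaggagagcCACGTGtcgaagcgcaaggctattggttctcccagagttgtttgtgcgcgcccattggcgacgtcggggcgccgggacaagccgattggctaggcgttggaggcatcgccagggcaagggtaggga
Ldha (chr7:46845554-46845803, plus strand): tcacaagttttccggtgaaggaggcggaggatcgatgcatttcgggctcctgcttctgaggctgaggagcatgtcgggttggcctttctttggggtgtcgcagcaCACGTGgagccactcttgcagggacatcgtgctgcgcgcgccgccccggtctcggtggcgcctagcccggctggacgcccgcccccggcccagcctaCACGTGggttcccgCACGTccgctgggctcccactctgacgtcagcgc
Ldhb (chr6:142507958-142508207, minus strand): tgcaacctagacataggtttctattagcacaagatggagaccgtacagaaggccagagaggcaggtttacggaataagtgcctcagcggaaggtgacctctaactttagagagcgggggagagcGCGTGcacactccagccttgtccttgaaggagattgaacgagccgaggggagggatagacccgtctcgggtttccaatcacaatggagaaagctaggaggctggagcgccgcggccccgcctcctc
The 2 starts of Hk1 differed in this window, with 0 matches in the first and 3 in the second. Pfkp held 3 matches. Pdk2 held 2 at the start shown, which overlap in an E-box, and 0 at its other start. Ldha held 5 at the start shown, some of them likewise overlapping in an E-box, and 1 at its other start. Ldhb held 1, and Eno2, the neuronal enolase, held 0.

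Between SUS and SED, 27 of the 32 genes had higher values in SUS, where 49.9% of all tested genes did, with a median log2 fold change of 0.11 against −0.00039 over all tested genes. The differences were small: the hexokinases, all 7 genes of the preparatory steps (log2 fold change 0.12 to 0.16) and all 6 of the payoff steps (0.05 to 0.19) had higher values, while the transporters Slc16a1 and Slc16a7 and both Pfkfb kinases had lower ones. None of the 32 passed an adjusted p of 0.05 by edgeR, where 0 of 16106 genes did (0%). By DESeq2, Hk1, Pfkp, Eno2 and Pkm passed, 4 of the 32, where 1.10% of all genes did. DESeq2 gave no adjusted p to 9 of the 32 and to 12178 of all genes, and among those with one, 4 of 23 members (17.4%) and 177 of 3928 genes (4.51%) passed.

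At an unadjusted p below 0.05 by edgeR, which 16 of the 32 and 13.1% of all genes had, 14 of the 32 genes stood higher in SUS, where 6.83% of all tested genes did, and 2 stood lower, where 6.26% did. The 3 SUS values lay above the 3 SED values in 14 of the 32 genes (9.72% of all genes) and below them in 3 (8.56%). Some of these gaps were narrow. Pgk1 stood at 237.68 CPM in SUS 1 against 237.61 in SED 1, and Eno1 at 511.13 in SUS 3 against 510.65 in SED 2. The count of 14 genes higher at an unadjusted p below 0.05 was 7 without SED 1, 8 without SED 3, 8 without SUS 1, 8 without the 3 libraries lowest in Ttr, and 9 in a fit of these 2 groups alone. The number of genes with higher values was 23 without SUS 2, 25 without SUS 1 and 25 without those 3 libraries. All genes at an unadjusted p below 0.05, in either direction, also fell in number, from 2108 of 16106 in the main fit. They were 1478 of 16337 without SED 1, 1460 of 16359 without SED 3, 1487 of 16334 without SUS 1 and 1901 of 15760 with 2 groups alone.

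**Figure D2:**
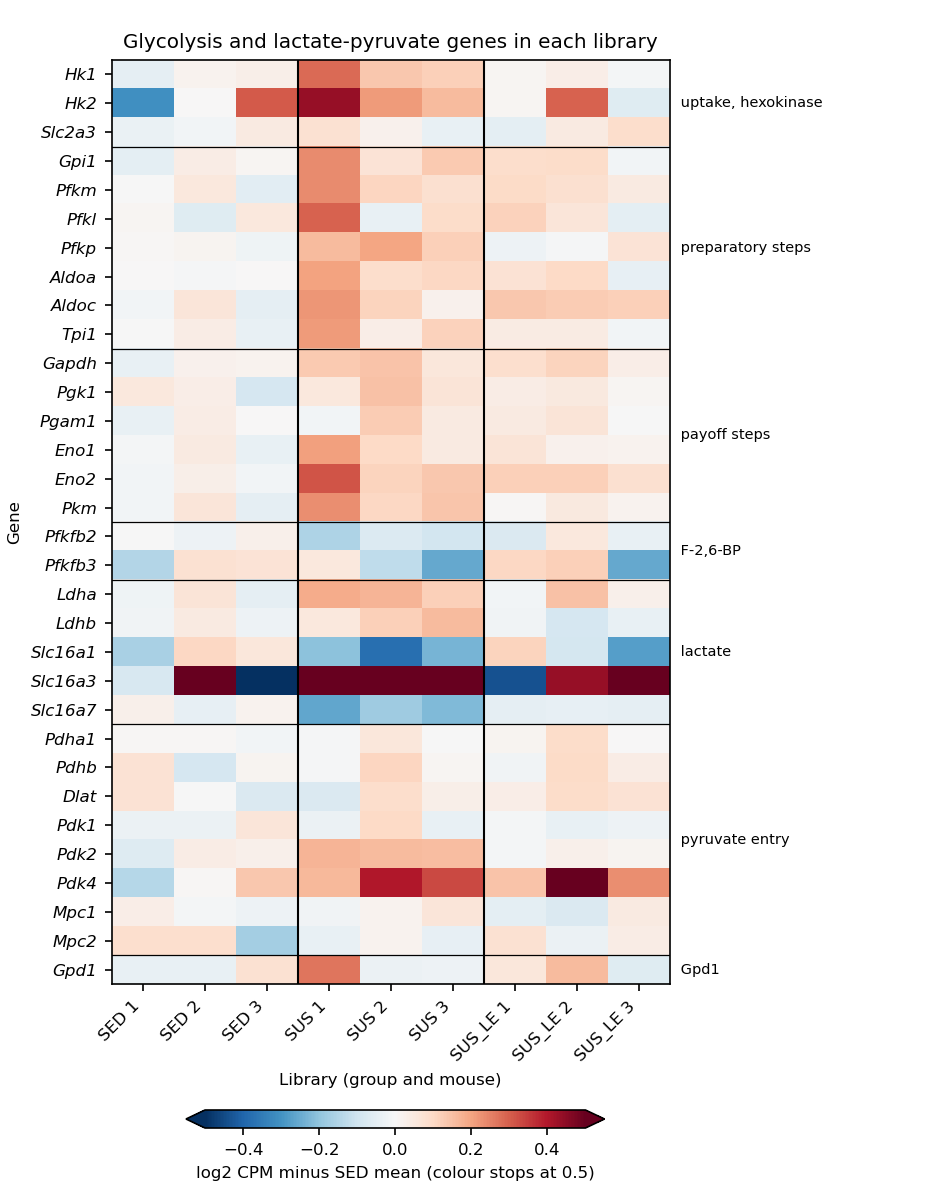
Log2 CPM of each of the 32 genes (rows, by role) in each of the 9 libraries (columns), minus the mean of the 3 SED libraries, with colours that stop at 0.5 in either direction. Most glycolytic enzymes are warm across SUS 1 to 3, with Pgam1 in SUS 1 (−0.01) and Pfkl in SUS 2 (−0.04) as exceptions, Slc16a1 and Slc16a7 are cool there, and the rows of pyruvate entry other than Pdk2 and Pdk4 are paler.

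Values of each mouse follow by role, and each log2 difference beside them is SUS minus SED with its SE. Glucose enters neurons through Slc2a3 (GLUT3), whose values overlapped between all groups: it stood at 97.6, 98.9 and 103 CPM across SED mice 1 to 3, 105, 101 and 97.3 across the SUS mice, and 96.4, 103 and 106 across the SUS_LE mice. Hk1, the main brain hexokinase, stood at 298, 312 and 315 CPM across SED mice 1 to 3, 375, 339 and 335 across the SUS mice, and 310.2, 316 and 306 across the SUS_LE mice. All 3 SUS values lay above the other 6 libraries (log2 difference 0.18 ± 0.05 SE, adjusted p = 0.173 by edgeR). Hk2, the inducible hexokinase, had few counts and stood at 3.93, 4.91 and 6.08 CPM across SED mice 1 to 3, 6.67, 5.69 and 5.48 across the SUS mice, and 4.93, 6.04 and 4.70 across the SUS_LE mice. Its SED and SUS values overlapped (log2 difference 0.26 ± 0.18 SE, adjusted p = 0.581 by edgeR).

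In the preparatory steps, which spend ATP, Pfkp had the smallest p between SUS and SED. It stood at 235, 237 and 231 CPM across SED mice 1 to 3, 261, 268 and 254 across the SUS mice, and 230.2, 234 and 246 across the SUS_LE mice. SUS values again lay above all others (log2 difference 0.16 ± 0.05 SE, adjusted p = 0.184 by edgeR). Pfkm stood at 197, 205 and 190.1 CPM across SED mice 1 to 3, 233, 212 and 209 across the SUS mice, and 211, 208 and 204 across the SUS_LE mice (log2 difference 0.14 ± 0.05 SE, adjusted p = 0.249 by edgeR), with each SUS value above each SED value. The liver form Pfkl overlapped between SUS and SED (log2 difference 0.12 ± 0.07 SE, adjusted p = 0.496 by edgeR), as SUS 1 reached 156 CPM and the other SUS mice 123 and 135. Glucose phosphate isomerase Gpi1 stood at 404, 429.6 and 422 CPM across SED mice 1 to 3, 492, 439 and 458 across the SUS mice, and 444, 446 and 414 across the SUS_LE mice (log2 difference 0.15 ± 0.06 SE, adjusted p = 0.269 by edgeR). Its SUS values lay above SED.

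Aldoa, the most abundant enzyme of the route, stood at 1251, 1245 and 1251 CPM across SED mice 1 to 3, 1434, 1329 and 1340.4 across the SUS mice, and 1313, 1337 and 1213 across the SUS_LE mice (log2 difference 0.13 ± 0.06 SE, adjusted p = 0.348 by edgeR). Its SED libraries lay within 1245 to 1251 CPM and every SUS library lay above them. Aldoc, the aldolase of astrocytes, stood at 415, 437 and 407 CPM across SED mice 1 to 3, 489, 453 and 426 across the SUS mice, and 460.2, 457 and 456 across the SUS_LE mice. In SUS it overlapped with SED (log2 difference 0.12 ± 0.06 SE, adjusted p = 0.367 by edgeR), since SUS 3 lay below SED 2. Triose phosphate isomerase Tpi1 overlapped likewise (mean ± SD of 3 mice 309.8 ± 19.4 CPM in SUS against 285 ± 7.52 in SED; log2 difference 0.12 ± 0.05 SE, adjusted p = 0.332 by edgeR).

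In the payoff steps, which return ATP and end in pyruvate, Eno2 showed the widest difference. It stood at 458, 472 and 459 CPM across SED mice 1 to 3, 575, 501 and 508 across the SUS mice, and 503, 504 and 489 across the SUS_LE mice. SUS 1 was far above the other SUS mice, and SUS 2 and 3 lay above SED (log2 difference 0.19 ± 0.06 SE, adjusted p = 0.184 by edgeR; 0.12 without SUS 1, 0.12 without the 3 libraries lowest in Ttr). The widely expressed enolase Eno1 stood at 492, 511 and 483 CPM across SED mice 1 to 3, 569.9, 531 and 511 across the SUS mice, and 518, 502 and 502 across the SUS_LE mice (log2 difference 0.12 ± 0.05 SE, adjusted p = 0.359 by edgeR). The near-identical copy Eno1b stood at 9.12 to 11.2 CPM in the 9 libraries, about the same in each group, and reads that fit both genes could be counted for either. Pkm, which makes pyruvate, stood at 612, 643 and 598 CPM across SED mice 1 to 3, 724, 663 and 679.8 across the SUS mice, and 620.0, 639 and 624 across the SUS_LE mice, with SUS above SED and SUS_LE (log2 difference 0.16 ± 0.05 SE, adjusted p = 0.226 by edgeR).

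Gapdh, often used as a reference gene, stood at 919, 955 and 954 CPM across SED mice 1 to 3, 1033, 1039.6 and 980.3 across the SUS mice, and 998, 1019 and 965 across the SUS_LE mice. Its SUS values lay above its SED values (log2 difference 0.11 ± 0.05 SE, adjusted p = 0.405 by edgeR). The phosphoglycerate kinase Pgk1 (244 ± 8.89 CPM in SUS, 229 ± 11.7 in SED) and the mutase Pgam1 (327 ± 16.1 and 315 ± 7.95) had smaller differences, of 0.09 and 0.05 on the log2 scale. Gapdh, Aldoa, Pgk1, Pgam1, Tpi1, Eno1 and Ldha are known to have processed pseudogenes, and how the authors' counting shared reads between copies is not given in the sources used here.

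Fructose 2,6-bisphosphate, made by the Pfkfb kinases, is the strongest activator of phosphofructokinase. Both kinases had lower values in SUS. Pfkfb3, the form linked to glycolytic rate in astrocytes, stood at 24.2, 28.2 and 28.1 CPM across SED mice 1 to 3, 27.8, 24.5 and 22.4 across the SUS mice, and 28.8, 29.1 and 22.4 across the SUS_LE mice, with broad overlap (log2 difference −0.11 ± 0.11 SE, adjusted p = 0.708 by edgeR). Pfkfb2 averaged 45.5 ± 1.45 CPM among SUS mice and 49.0 ± 0.868 among SED mice, without overlap (log2 difference −0.10 ± 0.06 SE, adjusted p = 0.497 by edgeR). Gpd1, which diverts triose phosphate to glycerol 3-phosphate and is known as an oligodendrocyte enzyme in brain, overlapped (log2 difference 0.08 ± 0.08 SE, adjusted p = 0.738 by edgeR).

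Both lactate dehydrogenase subunits had higher values in SUS than in SED. Ldha stood at 127, 135 and 125 CPM across SED mice 1 to 3, 147, 145 and 139.8 across the SUS mice, and 127, 143 and 131 across the SUS_LE mice, SUS above SED (log2 difference 0.16 ± 0.05 SE, adjusted p = 0.226 by edgeR). Ldhb stood at 191, 199.9 and 190.3 CPM across SED mice 1 to 3, 201, 210.4 and 216 across the SUS mice, and 191, 183 and 189 across the SUS_LE mice, SUS also above SED and above every SUS_LE value (log2 difference 0.11 ± 0.05 SE, adjusted p = 0.344 by edgeR). Within a library, Ldha made up 32.7% to 33.2% of the per-length level of the pair in SED, 32.3% to 35.0% in SUS and 33.0% to 36.5% in SUS_LE. The groups overlapped in this share: between SUS and SED it differed by 0.769 percentage points (exact permutation test, two-sided, p = 0.5, adjusted p = 1 over 24 tests of isozyme shares; with 3 against 3 mice the smallest p is 0.1). None of the 24 had an adjusted p under 0.96.

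Of the 3 lactate transporters, 2 had lower values in SUS. Slc16a1 (MCT1), the carrier of endothelium and oligodendrocytes, stood at 39.7, 47.8 and 46.2 CPM across SED mice 1 to 3, 38.5, 34.2 and 37.8 across the SUS mice, and 48.0, 41.8 and 36.7 across the SUS_LE mice. Its SUS values lay below SED by a narrow gap (log2 difference −0.28 ± 0.09 SE, adjusted p = 0.233 by edgeR). Slc16a7 (MCT2), the high-affinity carrier of neurons, had the smallest p of the 32 genes and stood at 52.0, 49.6 and 51.7 CPM across SED mice 1 to 3, 42.6, 45.2 and 43.9 across the SUS mice, and 49.5, 49.7 and 49.5 across the SUS_LE mice. SUS values lay below all others (log2 difference −0.22 ± 0.06 SE, adjusted p = 0.165 by edgeR). Slc16a3 (MCT4), the low-affinity carrier of astrocytes, rested on 9 to 29 counts a library and stood at 0.913, 1.61 and 0.608 CPM across SED mice 1 to 3, 1.51, 1.67 and 1.78 across the SUS mice, and 0.684, 1.36 and 1.97 across the SUS_LE mice. It overlapped between groups (log2 difference 0.66 ± 0.39 SE, adjusted p = 0.491 by edgeR).

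Markers of the cells that carry Slc16a1 were read beside it. The 9 oligodendrocyte markers summed to 3050 to 3266 CPM in SED, 2574 to 2941 in SUS and 2635 to 3261 in SUS_LE, and all 9 had lower values in SUS than in SED. The 7 endothelial markers summed to 235 to 254 CPM in SED, 215 to 239.6 in SUS and 254 to 268 in SUS_LE, with 6 of 7 lower in SUS. Their part in the Slc16a1 difference was not tested.

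Of 10 neuronal markers, 8 had higher values in SUS, like the glycolytic enzymes (median log2 fold change 0.13). Their summed level was 6297 to 6401 CPM in SED, 6258 to 6977 in SUS and 6495 to 6978 in SUS_LE. Of the 9 astrocyte markers 5 had lower and 4 had higher values in SUS (median −0.12), and the sum was 5180 to 5474 CPM in SED, 4771 to 4948 in SUS and 5227 to 5469 in SUS_LE. Most of that sum was Slc1a2, at 3515 to 4110 CPM across the 9 libraries. The 5 erythrocyte markers summed to 162 to 172 CPM in SED, 151 to 264 in SUS and 113 to 181 in SUS_LE, with all 5 higher in SUS than in SED (median 0.38). The part of these cells in the enzyme differences was not tested.

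Pyruvate enters mitochondria through the carrier pair Mpc1 and Mpc2 and is oxidised by pyruvate dehydrogenase, whose subunits include Pdha1, Pdhb and Dlat. These 5 genes had log2 fold changes between −0.02 and 0.04 in SUS against SED. Pdha1, the regulated subunit, stood at 224, 224 and 221 CPM across SED mice 1 to 3, 222, 232 and 223 across the SUS mice, and 225, 238 and 223 across the SUS_LE mice, and the 3 groups overlapped (95% interval of the log2 fold change in SUS −0.08 to 0.11). The kinases that switch the complex off differed among themselves. Pdk2 stood at 105, 113 and 112 CPM across SED mice 1 to 3, 124, 123 and 122 across the SUS mice, and 109, 112 and 111 across the SUS_LE mice, with SUS above all others (log2 difference 0.16 ± 0.05 SE, adjusted p = 0.196 by edgeR). Pdk4, which fasting and glucocorticoids are known to induce, was low and stood at 6.39, 7.08 and 7.77 CPM across SED mice 1 to 3, 7.90, 9.37 and 8.91 across the SUS mice, and 7.80, 10.1 and 8.31 across the SUS_LE mice. Its SUS values lay above SED by a narrow gap, with 115 counts in both SUS 1 and SED 3 (log2 difference 0.30 ± 0.14 SE, adjusted p = 0.38 by edgeR). Pdk1 overlapped (log2 difference 0.01 ± 0.06 SE, adjusted p = 0.957 by edgeR).

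**Figure D3:**
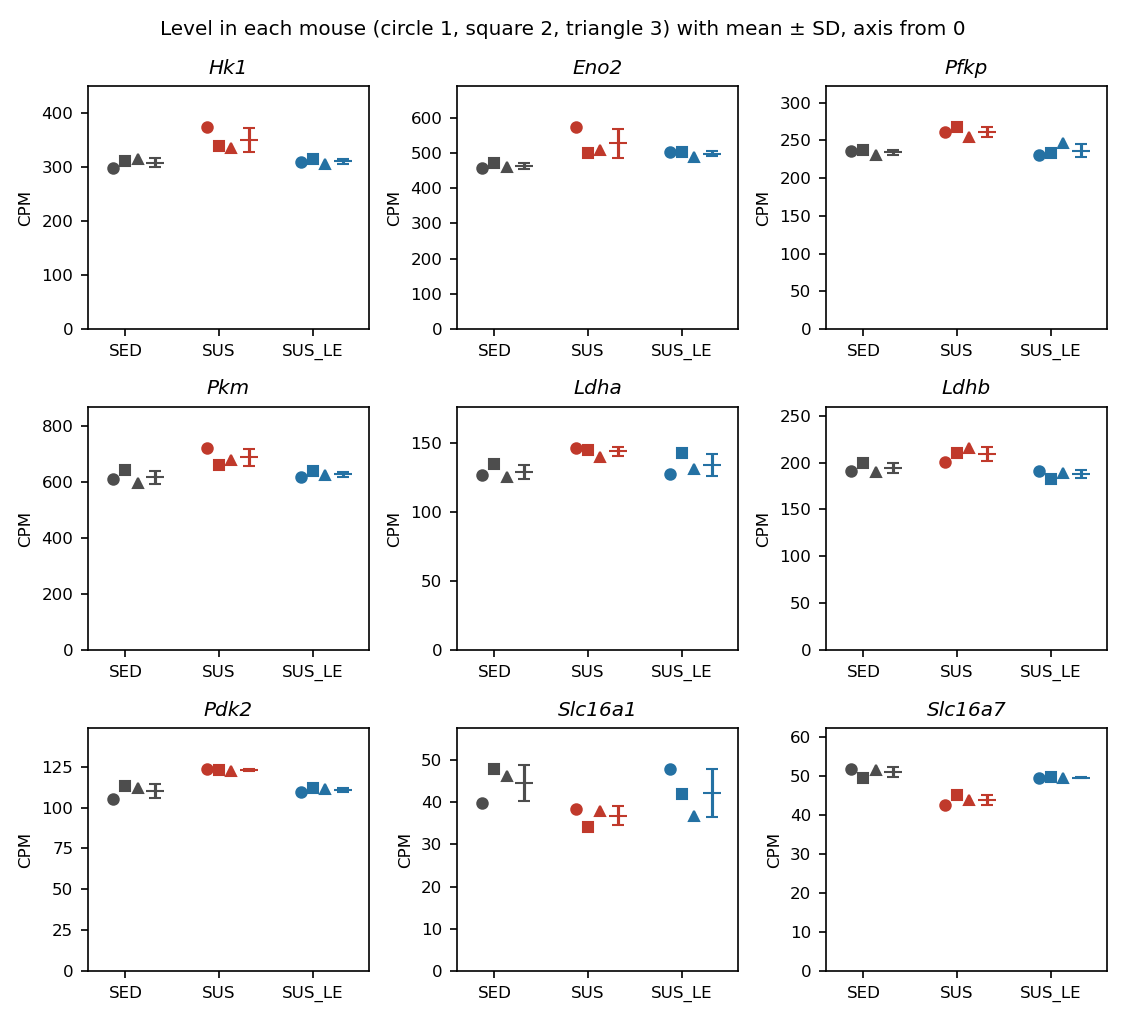
CPM of 9 genes in each mouse, with the axis from 0 and the mean ± SD of 3 mice beside the points. Hk1, Pfkp and Pdk2 are higher in all 3 SUS mice than in the other 6, and Slc16a7 is lower in all 3.

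Fold changes between SUS and SED followed the GC content of the transcript across all genes (Spearman's rho 0.366 over 14738 genes, which are not independent replicates). With transcript length rho was −0.231, and the fit below removes both trends together. The 32 genes had a median GC content of 52.3%, against 50.2% for all genes with a value. Among genes with 50% to 55% GC the median log2 fold change was 0.03 over 3688 genes and 0.12 over the 11 members in that range. At 55% to 60% GC it was 0.09 over 2806 genes and 0.13 over 9 members. With GC and length trends of each library removed, 27 of 32 genes still had higher values in SUS. The median of all genes also rose in that fit, so the share of 49.9% given above does not carry over to it. The median of the 32 was then 0.07, against 0.02 for all genes. Of the 16 members with an unadjusted p below 0.05, 6 kept one: Hk1, Gpi1, Pfkp, Eno2, Ldha and Pdk4. In that fit 1410 of 16106 genes had such a p in either direction. Slc16a7, the member with the longest transcript and the lowest GC content (37.7%), had a log2 fold change of −0.05 in that fit, Pdk2 of 0.09, and Pkm of 0.08.

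**Figure D4:**
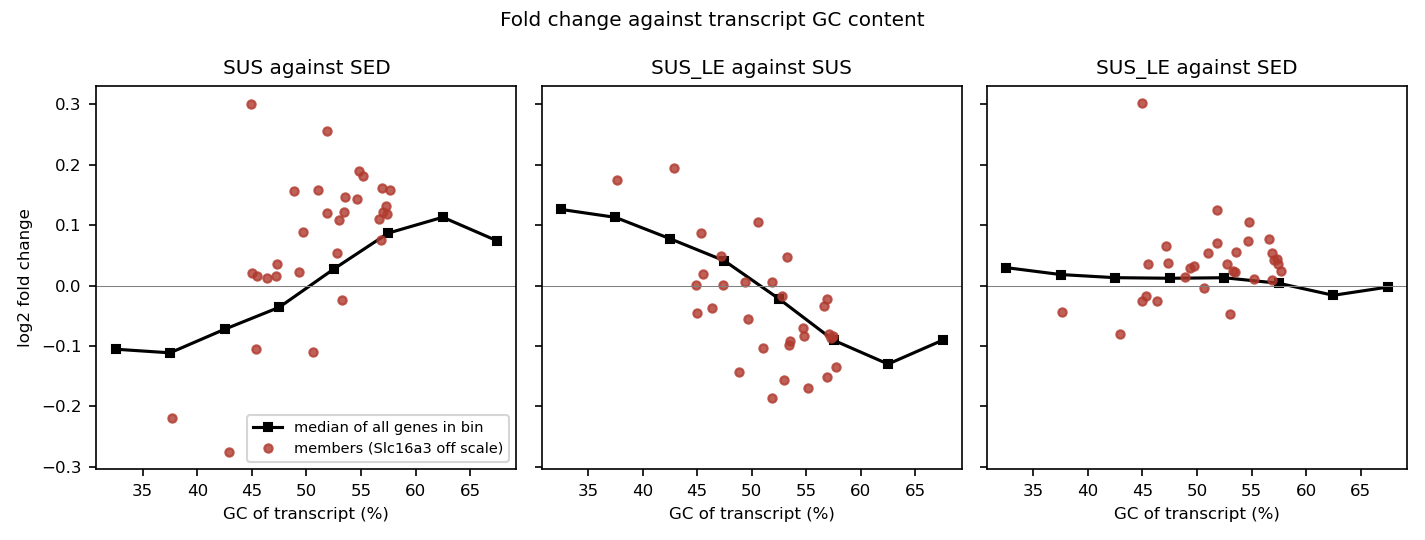
Log2 fold change against GC content of the transcript in the 3 comparisons, with the median of all genes in bins of 5% GC (black) and the 32 genes (red, Slc16a3 off scale). In SUS against SED most red points lie above the black line, in SUS_LE against SUS the line slopes the other way, and in SUS_LE against SED it is nearly flat.

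Exercised and unexercised susceptible mice were compared next, in a comparison that shares the SUS libraries with the one before. Of the 32 genes 21 had lower values in SUS_LE than in SUS and 11 had higher ones, where 50.3% of genes did (median log2 fold change −0.05, against 0.0011 over all genes; −0.02 with GC and length trends removed). The hexokinases Hk1 and Hk2, 6 of 7 preparatory genes and all 6 payoff genes had lower values, and Slc16a1, Slc16a7 and both Pfkfb kinases had higher ones. Erythrocyte markers were lower in SUS_LE than in SUS in 5 of 5 (median −0.62), astrocyte markers higher in 6 of 9 (median 0.10) and neuronal markers higher in 6 of 10 (median 0.04), and their part in these differences was not tested. None passed an adjusted p of 0.05 by edgeR, where 0% of genes did. DESeq2 called Hk1, 1 of 32 (adjusted p = 0.0478), where 1.15% of genes passed. Among those given an adjusted p, 1 of 28 members (3.57%) and 185 of 5177 genes (3.57%) passed, the same share. Once the model held a score for choroid plexus, edgeR called 436 of 16106 genes and 1 of the 32, Hk1 (log2 fold change −0.20, adjusted p = 0.0348). Over all settings tried, the adjusted p of Hk1 ran from 0.0348 to 0.781.

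At an unadjusted p below 0.05 by edgeR, 5 of 32 genes stood lower in SUS_LE, where 6.49% of genes did, and 1 stood higher, where 7.20% did. The SUS_LE values lay below the SUS values in 6 genes (8.38% of all genes) and above them in 1 (8.61%). The count of 5 was 8 without SUS 2 and 9 once that score was fitted. It was 4 without SUS 1, 4 without SUS_LE 1, 4 without SUS_LE 3 and 2 with GC and length trends removed. All genes at that p, in either direction, were 2205 of 16106 in the main fit. They rose to 2588 of 16366 without SUS 2 and 2829 of 16106 with the score. They fell to 1954 of 16334 without SUS 1 and 1779 of 16350 without SUS_LE 1. Without SUS_LE 3 they were 2019 of 16340, and with GC and length trends removed 1390 of 16106. Leaving out the 3 libraries lowest in Ttr left 1 SUS_LE library. In that fit the number of genes with higher values was 17 and the median log2 fold change was 0.0036. That number was 7 without SUS_LE 2 and 7 in a fit of these 2 groups alone.

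The differences that follow are SUS_LE minus SUS, with means ± SD of 3 mice in that order. Hk1 had a mean of 311 ± 4.81 CPM in exercised mice, against 349.7 ± 22.3 in unexercised ones (log2 difference −0.17 ± 0.05 SE, adjusted p = 0.174 by edgeR; −0.09 without the 3 libraries lowest in Ttr, −0.11 with GC and length trends removed). Ldhb stood at 188 ± 4.35 and 209 ± 7.71 CPM (log2 difference −0.16 ± 0.05 SE, adjusted p = 0.174 by edgeR). Pdk2 stood at 111 ± 1.35 and 123 ± 0.807 CPM (log2 difference −0.15 ± 0.05 SE, adjusted p = 0.188 by edgeR; −0.06 with GC and length trends removed). Pfkp stood at 237 ± 8.30 and 261 ± 7.05 CPM (log2 difference −0.14 ± 0.05 SE, adjusted p = 0.19 by edgeR). In all 4 genes no SUS_LE mouse reached the lowest SUS mouse.

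Of the 11 members with higher values in SUS_LE, Slc16a7 was the 1 with an unadjusted p below 0.05 by edgeR. It stood at 49.6 ± 0.120 CPM against 43.9 ± 1.28 in SUS (log2 difference 0.18 ± 0.06 SE, adjusted p = 0.209 by edgeR; 0.06 with GC and length trends removed). Its 3 SUS_LE values lay within 49.5 to 49.7 CPM. Slc16a1 spread from 36.7 to 48.0 CPM in SUS_LE and overlapped SUS (log2 difference 0.19 ± 0.09 SE, adjusted p = 0.385 by edgeR). Fold changes again followed GC content, in the opposite direction (rho −0.395), and rho with transcript length was 0.118. With GC and length trends removed, Pfkp and Ldhb kept an unadjusted p below 0.05 out of 6 genes, where 1390 of 16106 genes had one.

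**Figure D5:**
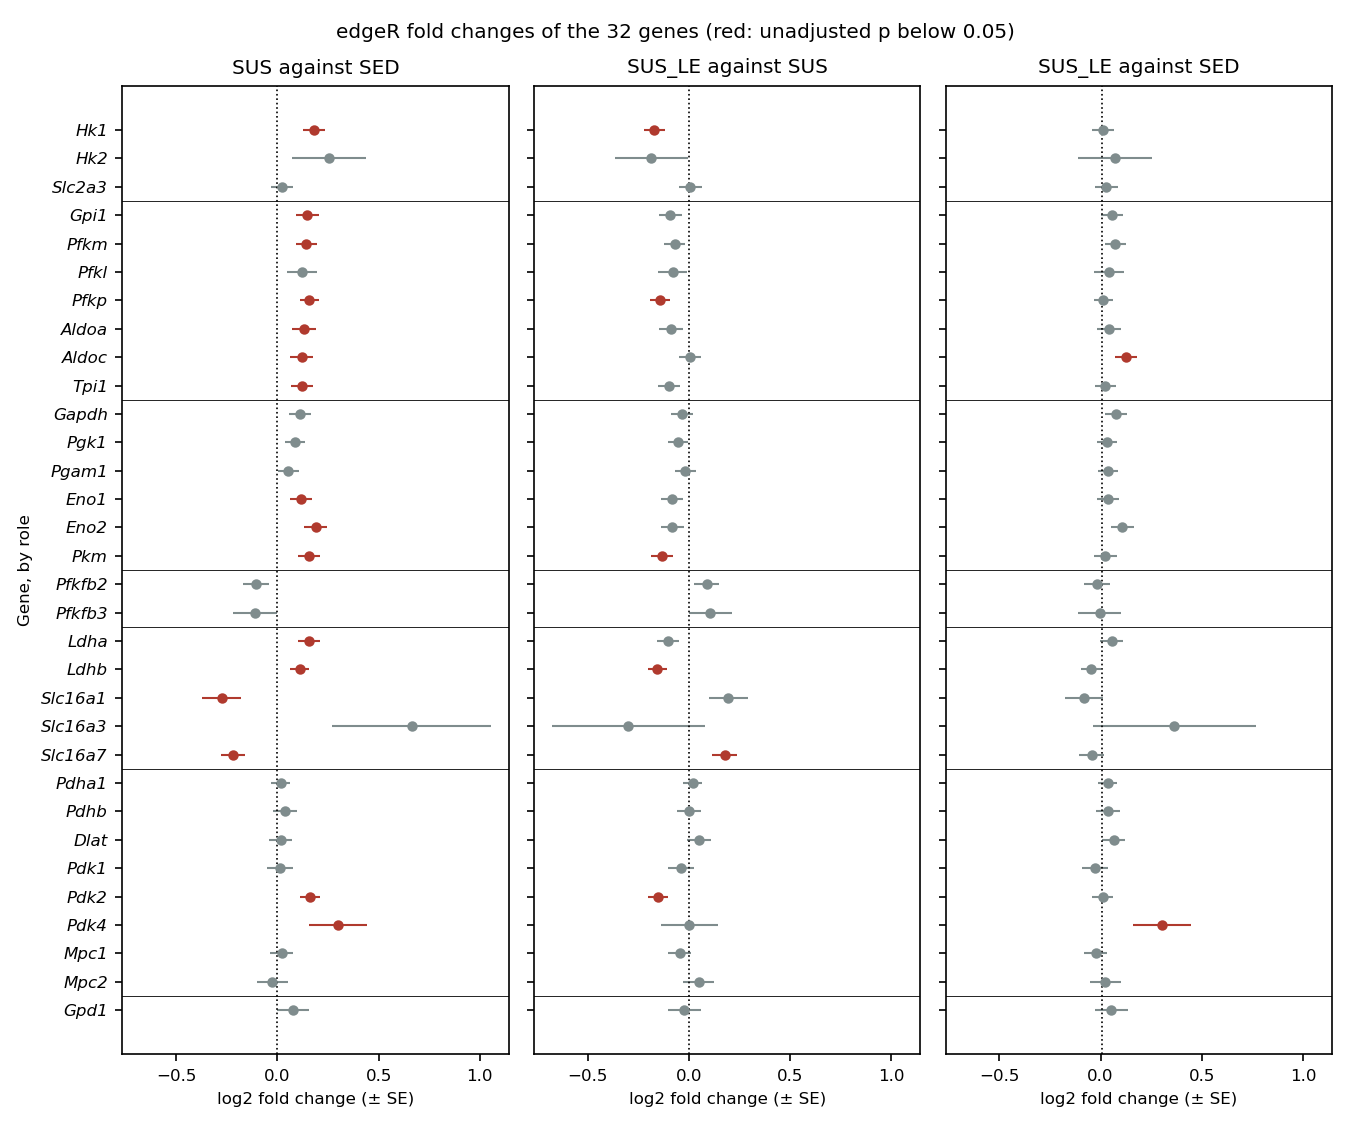
edgeR log2 fold change with its SE for each of the 32 genes, by role, in the 3 comparisons, with the median of all genes as a dotted line and genes with an unadjusted p below 0.05 in red. The glycolytic enzymes lie right of the line in SUS against SED and mostly left of it in SUS_LE against SUS, Slc16a1 and Slc16a7 lie on the other side in each, and in SUS_LE against SED most points lie close to the line, Slc16a3 (0.36) and Pdk4 (0.30) farther out.

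Exercised susceptible mice were also compared with SED mice, which shares libraries with both comparisons above. Values of the 32 genes lay close together: 25 were higher in SUS_LE, where 52.9% of genes were, and 7 lower, with a median log2 fold change of 0.04 against 0.0085 over all genes. None passed an adjusted p of 0.05 by edgeR (0% of genes) or DESeq2 (0.0993%). At an unadjusted p below 0.05 by edgeR 2 of 32 stood higher, where 2.79% of genes did, and 0 stood lower, where 3.86% did (6.64% in either direction). They were Aldoc (log2 difference 0.13 ± 0.06 SE, adjusted p = 0.727 by edgeR; 0.04 with the score for choroid plexus in the model) and Pdk4 (log2 difference 0.30 ± 0.14 SE, adjusted p = 0.746 by edgeR). The log2 difference of Pdk4 was 0.47 with that score and 0.19 without SUS_LE 2. Without the 3 libraries lowest in Ttr it was 0.51. That fit leaves SUS_LE 2, the highest library for Pdk4, as the only exercised mouse. Leaving out 1 library gave 0 to 3 such genes, with 0 without SED 1, SUS_LE 2 or SUS_LE 3. The 3 came without SUS 1, where 1494 of 16334 genes had such a p in either direction, against 1070 of 16106 in the main fit. The median of the 32 was 0.0066 with the score for choroid plexus in the model. Leaving the 3 libraries lowest in Ttr out gave 0.06, with SUS_LE 2 as the only exercised mouse.

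The SUS_LE values of Aldoc, 458 ± 2.18 CPM, lay above SED (419.6 ± 15.8) and close to SUS (456 ± 31.6; log2 fold change 0.0053 between SUS_LE and SUS). Eno2 (log2 difference 0.11 ± 0.06 SE, adjusted p = 0.772 by edgeR; 0.02 with the choroid score) and Gapdh (log2 difference 0.08 ± 0.05 SE, adjusted p = 0.837 by edgeR) also lay above SED in each SUS_LE mouse, as did 4 of the 32 genes where 7.54% of all genes did, and none of the 32 lay below SED in each SUS_LE mouse, where 8.64% did. Pfkm, the next by p, overlapped (log2 difference 0.07 ± 0.05 SE, adjusted p = 0.837 by edgeR; 0.0058 with the choroid score, 0.05 without SED 3). Hk1, Pfkp and Pdk2, which stood apart in SUS, had log2 fold changes of 0.01, 0.01 and 0.0095 between SUS_LE and SED, with an SE of 0.05 each. They are named because SUS lay outside both other groups, so small values here follow in part from that choice. A test for any difference among the 3 groups by edgeR called 0 genes at an adjusted p of 0.05, with 11 of the 32 members and 2171 of 16106 genes under an unadjusted p of 0.05.

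Other genes of glucose metabolism were read from lists of the same kind, and none passed an adjusted p of 0.05 by edgeR in any comparison. DESeq2 called Pdk3 in SUS against SED (adjusted p = 0.0488) and Bsg in SUS_LE against SUS (adjusted p = 0.00157). Of 28 tested genes of glycolysis and glucose handling outside the 32, 16 had higher values in SUS than in SED (median log2 fold change 0.0088). At an unadjusted p below 0.05 the phosphoglucomutase Pgm1 stood higher (log2 difference 0.17 ± 0.07 SE, adjusted p = 0.298 by edgeR) and Pdk3, a kinase of pyruvate dehydrogenase, stood lower (log2 difference −0.21 ± 0.06 SE, adjusted p = 0.165 by edgeR), 2 of 28 where 13.1% of all genes passed that p in either direction. The pentose phosphate route (3 of 7 higher, median −0.01) and glycogen genes (7 of 12 higher, 0.0064) were split between both directions, with the smallest p at the transaldolase Taldo1 in the first (log2 difference 0.15 ± 0.07 SE, adjusted p = 0.354 by edgeR). Citric acid cycle genes had higher values in 12 of 16 (median 0.04), the smallest p being that of the isocitrate dehydrogenase subunit Idh3g (log2 difference 0.12 ± 0.05 SE, adjusted p = 0.332 by edgeR), and genes of the malate-aspartate shuttle in 5 of 6 (0.05). Of 11 tested genes of hypoxia-inducible factor and its targets, 7 had lower values in SUS (median −0.03), 3 of them at an unadjusted p below 0.05, where 6.26% of all genes were lower. They were the factor subunits Epas1 (log2 difference −0.13 ± 0.05 SE, adjusted p = 0.242 by edgeR) and Hif1a (log2 difference −0.17 ± 0.07 SE, adjusted p = 0.299 by edgeR) and the oxygen sensor Egln1 (log2 difference −0.16 ± 0.07 SE, adjusted p = 0.357 by edgeR). SUS and SED values of Epas1 did not overlap, while those of Hif1a and Egln1 did. Pgm1, Hif1a, Egln1 and, below, Slc2a1 were named after their values were seen.

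Between SUS_LE and SUS, the chaperone that carries MCT1 and MCT4 to the cell surface, Bsg (basigin), had the smallest p of these lists. It stood at 359.6, 359 and 319.6 CPM across SED mice 1 to 3, 335, 354 and 411 across the SUS mice, and 275, 299 and 286 across the SUS_LE mice. SUS_LE values lay below those of both other groups (log2 difference −0.35 ± 0.07 SE, adjusted p = 0.0922 by edgeR, and −0.27 against SED). Bsg is also known from choroid plexus and endothelium. All 14 choroid plexus markers had lower values in SUS_LE than in SUS (median −2.09), and their part in the Bsg difference was not tested. Slc2a1 (GLUT1), the glucose transporter of endothelium and astrocytes, stood at 56.8, 59.3 and 52.9 CPM across SED mice 1 to 3, 52.5, 50.0 and 56.0 across the SUS mice, and 62.1, 63.7 and 59.9 across the SUS_LE mice (log2 difference 0.23 ± 0.07 SE, adjusted p = 0.147 by edgeR), higher in SUS_LE than in SUS. Of the endothelial markers 5 of 7 were also higher there, and of the astrocyte markers 6 of 9. Their part in the Slc2a1 difference was not tested. The muscle form of glycogen phosphorylase, Pygm, which astrocytes also express, stood at 25.2, 28.3 and 25.6 CPM across SED mice 1 to 3, 28.5, 27.6 and 31.0 across the SUS mice, and 23.8, 25.1 and 24.4 across the SUS_LE mice, with SUS_LE below SUS (log2 difference −0.25 ± 0.08 SE, adjusted p = 0.178 by edgeR).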

How the data were processed

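The authors deposited whole-number counts per gene symbol, 1 file per library, not normalized. Per the submitters' processing notes, fastp, STAR and Salmon were used with GRCm39. Versions, annotation, strand setting, use of molecular identifiers and any rounding are not given in the sources used here. Per the labels' protocols, RNAiso Plus was used to extract RNA, and the CORALL RNA-seq V2 kit to prepare sequencing libraries. File headers number the exercised libraries from 2, and the labels' numbers 1 to 3 are used here. Replicate numbers come from labels that name single mice, so p values measure the spread between mice. No library was a duplicate of another: in the 36 pairs of libraries counts differed by 2.80 to 17.9 times what sampling gives (chi-square over its degrees of freedom).

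From the counts, edgeR 4.0.16 (R 4.3.3) used the 9 libraries together and 1 factor, the group, after its expression filter and TMM scaling, with robust quasi-likelihood tests and Benjamini-Hochberg adjustment over 16106 genes at 0.05. DESeq2 1.42.0 was an alternative. On counts simulated for SUS against SED, 98 of 100 genes changed by 1 and 83 of 100 changed by 0.5 on the log2 scale were called. So were 17 unchanged genes. The changed genes were drawn from the more abundant ones, and changes smaller than 0.5 were not simulated. Log2 CPM used a prior count of 2. Transcript length and GC content came from GENCODE M21 (GRCm38), which held the symbols of 91.5% of tested genes and of all 32 members. They describe another annotation than the authors', so levels per kilobase are approximate. Intervals of fold changes are normal 95% intervals from the SE. The members, lists and alternatives were chosen with earlier results of these data known. Named genes are the 5 members with the smallest p in each comparison and 13 members of fixed interest. Other members were described by role after their values were seen. Genes outside the 32 were named where they had the smallest p of their list, though not for every list and comparison. Alternatives were other scaling, no filter, 2 groups only, a replicate block, a choroid plexus score, leaving out libraries, and GC and length trends removed by offsets (splines with 5 degrees of freedom).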

Additional observations from a re-analysis of the deposited data

How the results depend on the processing

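Among the 5 members with the smallest p in each comparison, none changed direction under the settings run, and 249 of their values kept direction and side of the adjusted threshold. DESeq2 gave Slc16a7 no adjusted p in SUS against SED. Another 5 passed it, namely Hk1, Eno2 and Pfkp in SUS against SED and Hk1 in SUS_LE against SUS with DESeq2, and Hk1 in SUS_LE against SUS with the choroid plexus score. Against 0 genes in all 3 pairwise comparisons, DESeq2 called 177 genes in SUS against SED (4 members), 185 in SUS_LE against SUS (1 member) and 16 in SUS_LE against SED. Without the filter on low counts 297 (1 member, Slc16a1), 430 and 218 genes were called in that order, and 695 for any difference among the groups. A fit of 2 groups alone called 1 gene in SUS_LE against SUS, where 7 members had higher values, and 239 genes in SUS_LE against SED. The choroid plexus score gave 436 genes (1 member) in SUS_LE against SUS, 2 in SUS_LE against SED, where the members' median was 0.0066, and 199 for any difference. Without the 3 libraries lowest in Ttr 14, 20 and 16 genes were called, and 30 for any difference. The members' medians were then 0.077, 0.0036 (reversed from −0.05, with 17 members higher) and 0.062, with only SUS_LE 2 left of the exercised mice. With GC and length trends removed the median was 0.072 in SUS against SED and −0.02 in SUS_LE against SUS. The causes were not tested.

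Replicate numbers did not pair the mice: same-numbered mice had correlations of deviations from −0.15 to 0.27. With the replicate block 1 gene was called in SUS against SED, 1 in SUS_LE against SUS and 1 for any difference, and no member. Leaving out each mouse in turn gave 0 to 74, 0 to 184 and 0 to 69 called genes in the 3 comparisons and 0 to 86 for any difference, with 0 members called. The members with higher values then numbered 23 to 27, 7 to 12 and 22 to 26, and their medians ran from 0.08 to 0.13, from −0.07 to −0.04 and from 0.02 to 0.04. Without SUS 3, 74 genes were called in SUS against SED and 50 in SUS_LE against SED. Without SUS 1, 83 were called in SUS_LE against SUS and 69 in SUS_LE against SED, and without SUS 2, 184 in SUS_LE against SUS. Counts of members and medians under these settings were added after seeing the data. Slc16a3, Hk2 and Pdk4 had the fewest counts and the widest errors.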
